A study of Mus musculus with 7 samples.

Results

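Immediate early genes are transcribed within minutes of a stimulus without new protein synthesis, and 10 of them were followed here by symbol through the count table: Fos, Fosb, Jun, Junb, Egr1, Atf3, Ier2, Dusp1, Nr4a1 and Zfp36. All 10 were present among the 28828 entries of the table, and all 10 passed the filter on low counts that left 19832 genes for testing. The libraries were made from total RNA of whole lung of C57BL/6 mice, 4 of wild type and 3 of knockout genotype, the knockout being of Scgb3a2, a secretoglobin of airway secretory cells. The wild type libraries are called WT2, WT3, WT4 and WT6 and the knockout libraries KO3, KO4 and KO5, after the numbers in their titles. The labels used here do not state which part of Scgb3a2 is deleted, nor the sex, age or litter of the mice or how the lungs were collected. Nothing states that each library came from a separate mouse, so the p-values reflect only how far these libraries differ among themselves, which may be technical.

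The protein products fall into several roles. Fos, Fosb, Jun and Junb are subunits of the dimeric transcription factor AP-1, and Atf3 is a stress-induced factor with the same type of leucine zipper. Egr1 is a zinc finger factor, Nr4a1 an orphan nuclear receptor and Ier2 a small nuclear protein. Dusp1, a phosphatase of MAP kinases, and Zfp36 (tristetraprolin), which directs the decay of mRNAs with AU-rich elements, end the response that induces them. These genes respond to growth factors, stretch, hypoxia, inflammatory signals and the handling of tissue, and their transcripts are short-lived. Their classical control runs through the serum response element, a CArG box bound by SRF, and through the cAMP response element (CRE) bound by CREB.

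Promoter sequences are shown as background, and whether their letters bear on the members' levels was not tested. RefSeq promoters on GRCm38.p6 were matched for 8 of the 10 genes, not for Egr1 and Ier2, and the 250 bases before the start site were searched. The full CRE, TGACGTCA, was found in Dusp1 alone of the 8 and in 1.55% of 32851 promoter windows of the same length. Its 5-letter core, TGACG on either strand, was found in 6 of the 8 (Fos, Fosb, Junb, Atf3, Dusp1 and Nr4a1) and in 17.8% of all windows. Each full CRE also holds the core on both strands. A CArG box was found in Zfp36 alone of the 8 and in 1.47% of all windows, and the AP-1 site TGANTCA in none of the 8 and in 6.75%. The TATAA letters, read on the gene's strand, occurred in Fos and in 16.0% of all windows. These matches describe exact letters, not bound sites, and sites with other letters or further from the start were not searched. The shares over all windows were not matched for base composition. The printed windows run 5′ to 3′ on the strand of the gene, and capitals mark the CRE core, the full CRE in Dusp1, TATAA in Fos and the CArG box in Zfp36.
Fos, chr12:85473770-85473889, plus strand: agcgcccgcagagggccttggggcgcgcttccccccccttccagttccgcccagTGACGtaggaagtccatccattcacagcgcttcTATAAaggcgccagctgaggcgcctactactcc
Junb, chr8:84978749-84978868, minus strand: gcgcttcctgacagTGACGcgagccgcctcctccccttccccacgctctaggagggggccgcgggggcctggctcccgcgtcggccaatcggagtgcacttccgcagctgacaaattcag
Jun, chr4:95052223-95052342, minus strand: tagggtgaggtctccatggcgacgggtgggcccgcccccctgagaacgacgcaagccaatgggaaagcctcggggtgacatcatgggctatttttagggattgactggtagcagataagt
Dusp1, chr17:26508523-26508722, minus strand: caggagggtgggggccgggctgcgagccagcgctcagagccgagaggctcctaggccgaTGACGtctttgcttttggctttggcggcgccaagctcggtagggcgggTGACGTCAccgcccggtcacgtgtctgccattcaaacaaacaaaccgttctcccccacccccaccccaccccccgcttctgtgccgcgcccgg
Nr4a1, chr15:101266596-101266845, plus strand: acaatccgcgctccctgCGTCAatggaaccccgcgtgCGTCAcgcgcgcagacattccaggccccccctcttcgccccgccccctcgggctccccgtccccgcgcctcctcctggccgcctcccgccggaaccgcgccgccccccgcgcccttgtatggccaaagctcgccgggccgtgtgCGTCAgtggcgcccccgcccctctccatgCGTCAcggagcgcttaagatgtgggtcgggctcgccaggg
Zfp36, chr7:28379267-28379296, minus strand: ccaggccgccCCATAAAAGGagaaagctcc
Fos carried the core 66 bases before its start site in the printed window, and again 129 bases before it. In Dusp1 the full CRE began 143 bases and a further core 191 bases before the start. Nr4a1 had 4 cores, at 233, 213, 69 and 40 bases before the start. Jun is printed as a member without any of these letters in its window. The printed windows of Nr4a1, Dusp1 and Zfp36 lie inside the gene spans given further on. Those spans come from GENCODE and the start sites from RefSeq.

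Totals ranged from 13071262 to 16480006 counts per library. Levels are given in CPM, the count of a gene relative to its library's total after TMM scaling. The targeted gene Scgb3a2 ranged from 195 to 292 CPM among the wild type and from 1.21 to 2.67 CPM among the knockout libraries, so that each library carried the level its label states. Over the whole transcriptome edgeR's quasi-likelihood test with Benjamini-Hochberg adjustment called 7 of 19832 genes (0.0353%) at an adjusted p under 0.05. Across genotypes, the deviations from the group means over all genes correlated most between WT6 and KO5 (r = 0.59, the next highest pair 0.24), and these libraries held the most mesothelium transcripts (12 marker genes summed to 723 and 662 CPM, against 443 to 559.7 CPM in the others). Lung identity was plain in each library, with lung epithelium markers summing to 19370 to 31760 CPM and none of the 10 markers at 0. In whole tissue, fewer cells of a type and less RNA per cell cannot be told apart.

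The immediate early genes did not differ detectably between genotypes. For 7 of the 10 the highest and lowest libraries were both wild type, and for Fosb, Egr1 and Nr4a1 the lowest was KO4. None of the 10 was called by edgeR, against 0.0353% of all tested genes (0.0252% called higher in the knockout and 0.0101% called lower), and none had an unadjusted p under 0.05, against 2.87% of all genes. DESeq2 called none of them either, against 0.277% of the genes it tested. None had an unadjusted p under 0.05 there, though the smallest, 0.0518, was close to it. In each of the 10 the knockout and wild type values overlapped, while 3.72% of all tested genes had groups that did not (2.11% with the knockout libraries above and 1.61% with them below). Across the members together, WT2 and WT4 held the most immediate early transcripts and WT3 and WT6 the fewest, with the knockout libraries mostly in between. The counts of the 10 genes made up 0.106% of all counts in both WT2 and WT4, 0.0657% in WT3 and 0.0559% in WT6. In KO3, KO4 and KO5 they made up 0.0883%, 0.0797% and 0.0765%. Jun, Dusp1 and Zfp36 had the largest counts of the 10 in every library and so weigh most in these shares.

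**Figure D1:**
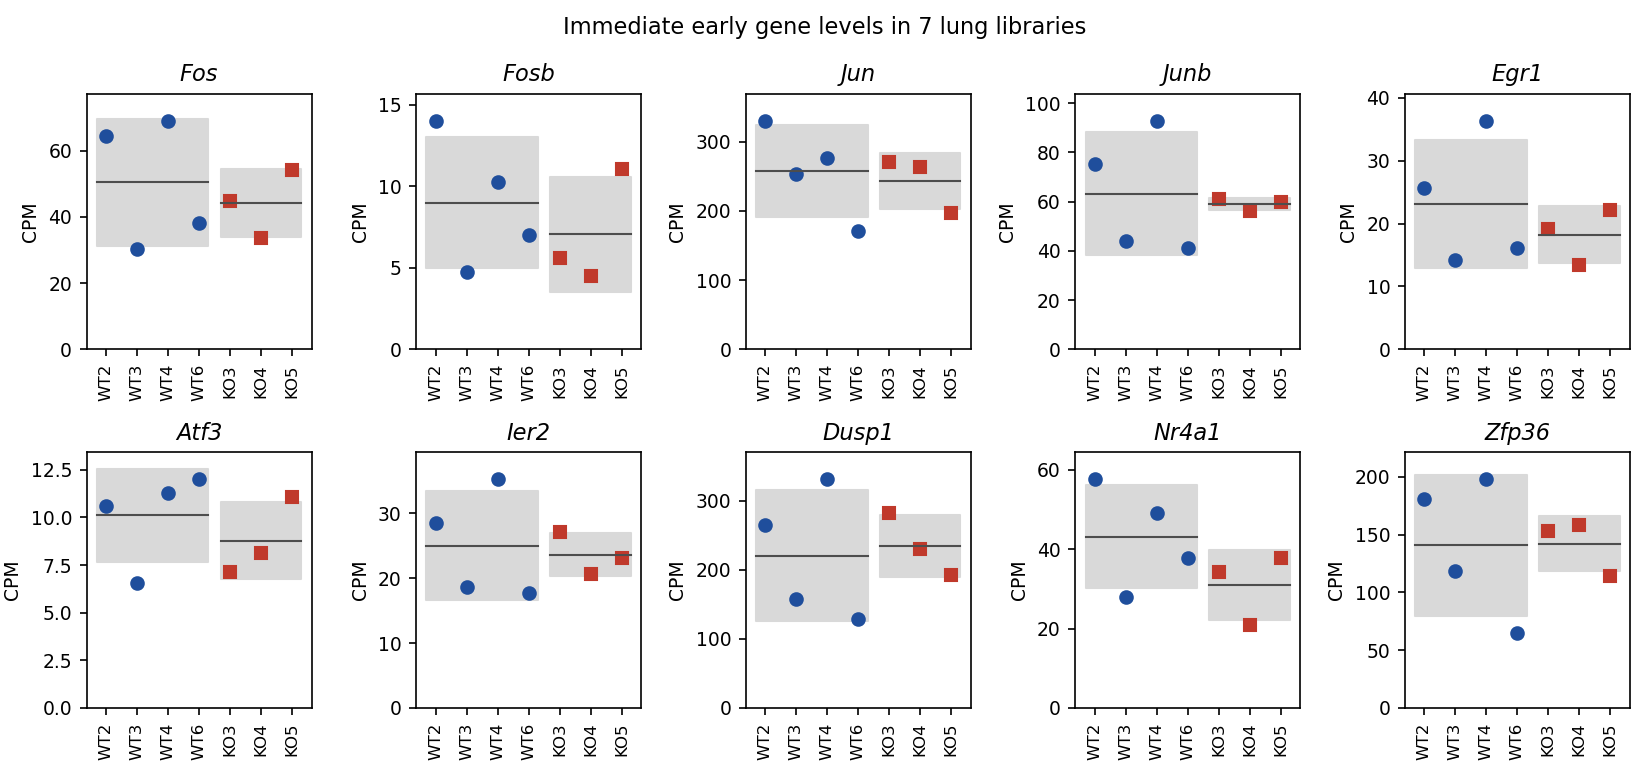
Level of each immediate early gene in CPM (y axes, from 0) in the 4 wild type (blue circles) and 3 knockout libraries (red squares), with the group mean as a line and ± 1 SD as a grey band. WT2 and WT4 lie at or near the top in most panels, and the groups overlap in all 10.

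Fos, the prototype of the class and a partner of Jun in AP-1 (chromosome 12, 85473890 to 85477273, plus strand, GRCm38), was measured at 64.5, 30.2, 69.0 and 38.1 CPM in WT2, WT3, WT4 and WT6. The knockout libraries KO3, KO4 and KO5 had 44.8, 33.7 and 54.1 CPM of it. WT2 and WT4 were thus the highest and WT3 the lowest of all 7 libraries, and all knockout values fell within the wild type range. The group means were 50.5 ± 19.2 CPM (SD, n = 4) and 44.2 ± 10.2 CPM (SD, n = 3), with a log2 fold change of -0.19 ± 0.30 (SE) and an adjusted p of 0.9998. Without WT4 the log2 fold change was -0.0038.

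Fosb, a second Fos family subunit known for lasting variants in stimulated tissue (chromosome 7, 19302696 to 19310051, minus strand), was the least abundant member. Its counts were 233, 74, 139 and 100 in WT2, WT3, WT4 and WT6 and 83, 71 and 153 in KO3, KO4 and KO5. In the same order the wild type levels were 14.0, 4.72, 10.3 and 7.02 CPM, and those of the knockout 5.60, 4.51 and 11.1 CPM. WT2 was again highest, and KO5 lay above WT4, so the order of the libraries was not that of genotype. The counting intervals (95%, exact Poisson, counting error only) of 204 to 265 counts in WT2 and 55.5 to 89.6 counts in KO4 did not meet, so counting error is smaller than this difference. Between genotypes Fosb had a log2 fold change of -0.36 ± 0.41 (SE, adjusted p = 0.9998), which was -0.060 without WT2 and -0.83 without KO5.

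Jun, the main DNA-binding partner of Fos (chromosome 4, 95049034 to 95052222, minus strand, a gene of 1 exon), was the most abundant of the 10 in wild type lung. It had 330, 254, 276 and 171 CPM in WT2, WT3, WT4 and WT6, against 271, 264 and 197 CPM in KO3, KO4 and KO5. WT6 and KO5 were the lowest libraries here, unlike for Fos, where KO5 was the highest knockout library. The log2 fold change was -0.08 ± 0.20 (SE, adjusted p = 0.9998), and its sign turned when WT2 (0.06) or KO5 (0.06) was left out.

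Junb, a Jun relative with weaker transactivation (chromosome 8, 84974484 to 84978718, minus strand), had 75.4, 43.97, 92.8 and 41.0 CPM in WT2, WT3, WT4 and WT6. In KO3, KO4 and KO5 it had 60.9, 56.1 and 59.9 CPM. The knockout libraries lay close together, with an SD of 2.55 CPM around 59.0 CPM (n = 3), between a high and a low pair of wild type values with an SD of 25.1 CPM around 63.3 CPM (n = 4). The difference in spread was not tested. The log2 fold change was -0.10 ± 0.27 (SE, adjusted p = 0.9998), and 0.14 without WT4.

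Reads of Jun and Junb may include some of their neighbours, since the sources used here do not state the strand setting of the counting. Junos, on the opposite strand of Jun, had a mean of 11.9 CPM in the wild type and 12.6 CPM in the knockout libraries, far less than Jun. Prdx2, which overlaps the annotated end of Junb from the other strand, had 45.1 and 41.1 CPM, against 63.3 and 59.0 CPM of Junb. Junos was highest in KO3 and Prdx2 in WT6. The part of such reads in the levels of Jun and Junb was not tested.

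Atf3, the stress-induced repressor and activator of the ATF/CREB family (chromosome 1, 191170296 to 191218039, minus strand), followed another order. Its wild type values were 10.6, 6.56, 11.3 and 12.0 CPM in WT2, WT3, WT4 and WT6, and its knockout values were 7.15, 8.13 and 11.1 CPM in KO3, KO4 and KO5. WT6, low for most members, was its highest library, and WT3 its lowest. Means were 10.1 ± 2.44 and 8.78 ± 2.03 CPM (log2 fold change -0.20 ± 0.23 SE, adjusted p = 0.9998).

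Egr1, which couples growth signals to transcription and is induced through serum response elements (chromosome 18, 34859823 to 34864984, plus strand), lies 8.90 Mb from the targeted gene Scgb3a2. It had 25.6, 14.2, 36.3 and 16.1 CPM in WT2, WT3, WT4 and WT6, against 19.2, 13.3 and 22.2 CPM in KO3, KO4 and KO5. WT4 stood highest, above the next library WT2, and KO4 lowest. Its log2 fold change between genotypes was -0.34 ± 0.33 (SE, adjusted p = 0.9998), and -0.036 without WT4.

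Nr4a1, the receptor Nur77 induced in T cells, macrophages and endothelium by antigen, inflammation or shear (chromosome 15, 101254269 to 101274795, plus strand), had the largest difference between genotypes of the 10, still within the spread of the libraries. It had 57.6, 27.9, 49.2 and 37.9 CPM in WT2, WT3, WT4 and WT6 against 34.2, 20.9 and 37.9 CPM in KO3, KO4 and KO5. WT3 lay below KO3 and KO5, so that the groups overlapped. Means were 43.2 ± 12.98 and 31.0 ± 8.93 CPM, a log2 fold change of -0.48 ± 0.27 (SE) with a 95% interval of -1.09 to 0.13. The unadjusted p was 0.109 and the adjusted p 0.9998, both from edgeR.

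Ier2 (chromosome 8, 84661331 to 84662852, minus strand, 1 exon) had 28.5, 18.7, 35.2 and 17.8 CPM in WT2, WT3, WT4 and WT6, against 27.1, 20.6 and 23.1 CPM in KO3, KO4 and KO5. Its order of libraries, from WT4 and WT2 at the top through KO3, KO5 and KO4 to WT3 and WT6, was identical to that of Junb. Between genotypes Ier2 had a log2 fold change of -0.08 ± 0.23 (SE, adjusted p = 0.9998), which turned to 0.12 without WT4 and 0.0052 without KO4.

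The feedback genes were abundant, and neither had a fold change that kept its sign with each library left out. Dusp1, which inactivates p38, JNK and ERK and is also induced by glucocorticoids (chromosome 17, 26505590 to 26562128, minus strand), had 266, 158, 331 and 128 CPM in WT2, WT3, WT4 and WT6. The knockout libraries KO3, KO4 and KO5 had 282, 230 and 192 CPM. WT4 was highest and KO3 next, above WT2, with WT3 and WT6 lowest. The log2 fold change of 0.09 ± 0.32 (SE, adjusted p = 0.9998) turned negative without WT3 (-0.04), WT6 (-0.10) or KO3 (-0.07). Ergic1, which overlaps the Dusp1 locus on the other strand, ranged from 69.2 to 80.9 CPM. The part of its reads in the Dusp1 level was not tested.

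Zfp36 (chromosome 7, 28376784 to 28380253, minus strand) had 181, 119, 198 and 64.9 CPM in WT2, WT3, WT4 and WT6 against 153, 158 and 115 CPM in KO3, KO4 and KO5. WT6 was far below every other library, and the means of 141 ± 60.9 and 142 ± 23.9 CPM were nearly the same. The log2 fold change was 0.01 ± 0.36 (SE, adjusted p = 0.9998), with a 95% interval of -0.83 to 0.85, and lay between -0.22 (without WT6) and 0.22 (without WT4) with 1 library left out.

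**Figure D2:**
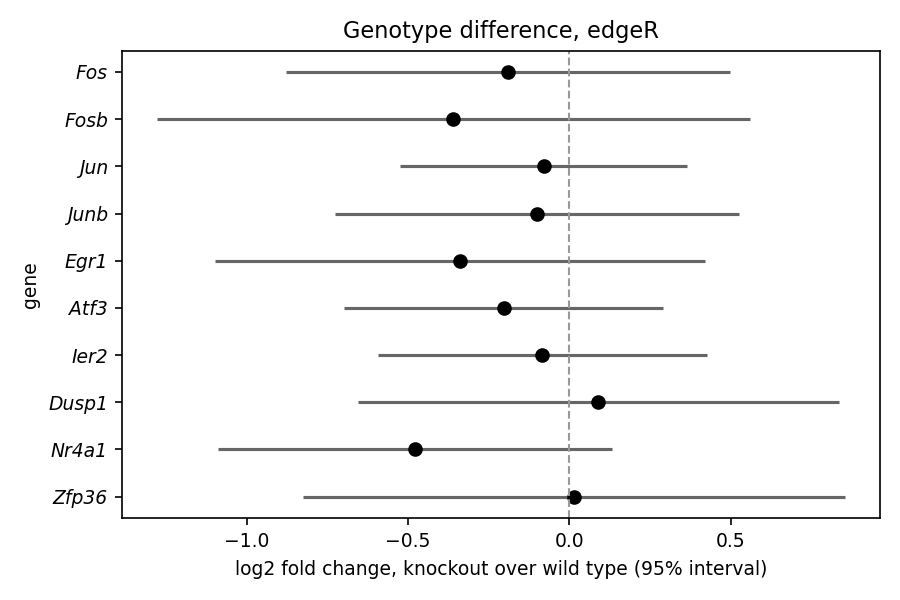
Log2 fold change of each member, knockout over wild type (x axis), with its 95% interval from edgeR's quasi-likelihood fit. All 10 intervals cross 0, and the points run from -0.48 (Nr4a1) to 0.09 (Dusp1).

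As a group, 8 of the 10 had negative log2 fold changes, against 52.0% of all tested genes. Their median was -0.15, against -0.01 over all genes. This median moved with single libraries: it was -0.034 without WT2, -0.020 without WT4 and -0.096 without KO4, against -0.30 without WT3, -0.25 without WT6 and -0.23 without KO5. The 95% intervals differed in width between members, from -0.52 to 0.36 for Jun and -0.70 to 0.29 for Atf3 to -1.28 to 0.56 for Fosb. Each interval gives the fold changes compatible with these libraries, without adjustment for the number of genes tested. It is not a limit of detection.

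The shared pattern across libraries was larger than the genotype difference. In 7 of the 10 genes WT2 and WT4 were the 2 highest libraries, the exceptions being Fosb, Atf3 and Dusp1, and WT2 and WT4 lay above the gene's mean over libraries in all 10. On the log2 CPM scale, the mean deviation of the 10 members was 0.44 in WT2 and 0.52 in WT4, and -0.40 in WT3 and -0.35 in WT6. It was 0.00 in KO3, -0.26 in KO4 and 0.05 in KO5. The knockout values of 7 members, all but Fosb, Egr1 and Nr4a1, lay wholly inside the wild type range, which was so for 35.6% of all tested genes.

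**Figure D3:**
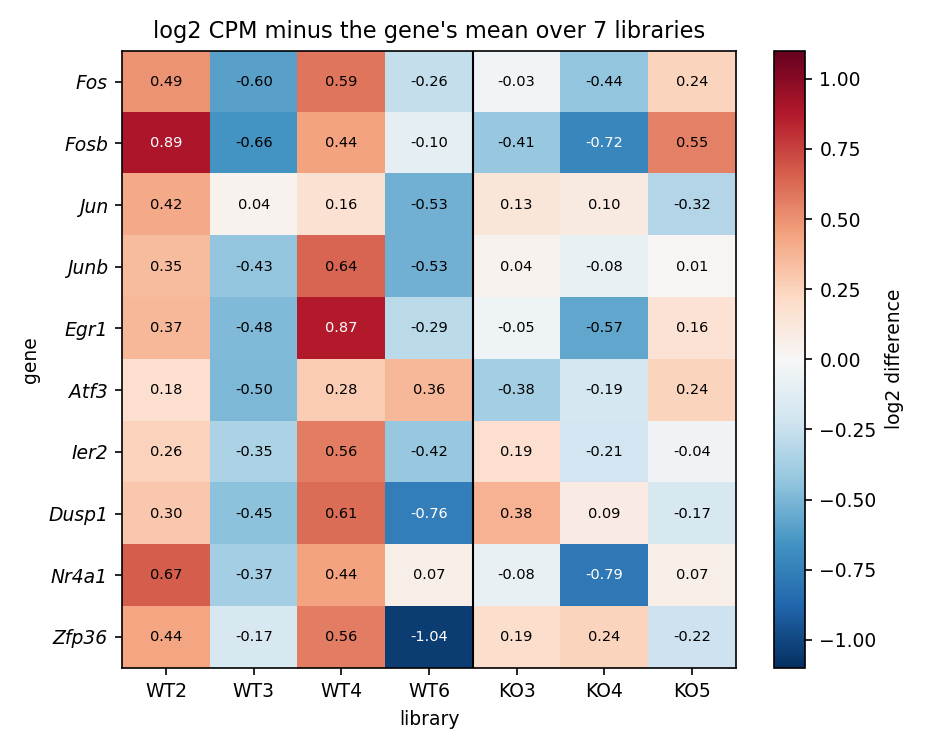
Log2 CPM of each member minus its own mean over the 7 libraries (colour and printed value), with wild type libraries left and knockout libraries right of the line. The WT2 and WT4 columns are positive for all 10 genes, and WT3 is negative for all but Jun.

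The members did not all rank the libraries alike. KO5 was the highest knockout library for Fos, Fosb, Egr1, Atf3 and Nr4a1, whereas it was the lowest for Jun, Dusp1 and Zfp36. KO4 was the lowest for Fos, Fosb, Junb, Egr1, Ier2 and Nr4a1. WT6 was the lowest wild type library for 5 members (Jun, Junb, Ier2, Dusp1 and Zfp36) and WT3 for the other 5. The mean deviation of Jun, Dusp1 and Zfp36, grouped after their values were seen, was -0.78 in WT6 and -0.24 in KO5. For the other 7 members it was -0.17 and 0.18. WT6 and KO5 had the most mesothelium transcripts. They also had the lowest lung epithelium sums (22820 and 19370 CPM, against 27010 to 31760 CPM in the others). Their smooth muscle sums were lowest too (1336 and 1169 CPM, against 1432 to 1684 CPM). The part of cell composition in these deviations was not tested. Of the 45 pairs of members, 42 had a positive Pearson correlation over the 7 libraries, with a median r of 0.64. The closest pair was Junb with Ier2 (r = 0.97), followed by Fos with Egr1 (0.96), and the pairs below 0 joined Atf3 with Jun (-0.36), Zfp36 (-0.20) and Dusp1 (-0.03). These correlations share the 7 libraries with their genotypes and depths and are a description.

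The wild type libraries spread more for these genes than for most others. The coefficient of variation over the 4 wild type libraries was 24.1% (Atf3) to 44.9% (Fosb), with a median of 38.8%, against a median of 12.5% over the 12704 genes with a mean of at least 5 CPM. Egr1 (44.1%) lay above 98.8% of those genes, Dusp1 (42.8%) above 98.6%, and Atf3, the least variable member, above 89.2%. Among the 3 knockout libraries the members' median was 21.2% against 10.5% over the same genes, from 4.32% for Junb to 49.7% for Fosb. The coefficient was larger in wild type than in knockout lung for 9 of the 10, all but Fosb, a difference that was not tested.

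**Figure D4:**
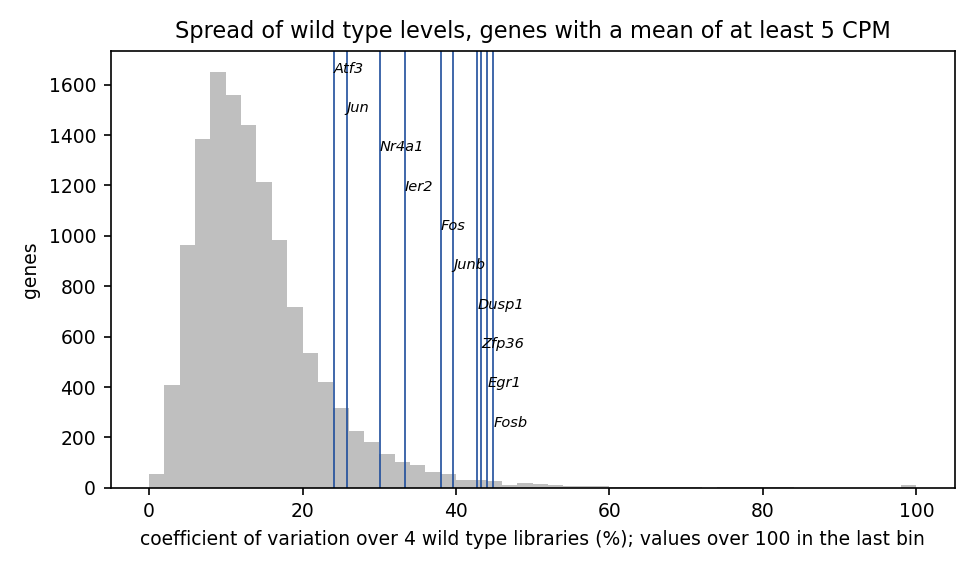
Coefficient of variation over the 4 wild type libraries (x axis, %) for the 12704 genes with a mean of at least 5 CPM (grey bars, number of genes), with the 10 members as blue lines. The members lie between 24.1% and 44.9%, to the right of the median of 12.5%.

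Library measures beside this pattern gave no single match. WT2 had the largest total, while WT4 had a smaller total than WT3. The share of mitochondrially encoded counts was 2.20% in WT2 and 2.71% in WT4, against 3.56% and 2.36% in WT3 and WT6 and 2.23% to 3.64% in the knockout libraries. Of the 9 marker lists, the lung endothelium list of 10 genes was the 1 whose 2 highest sums were those of WT2 (4633 CPM) and WT4 (4295 CPM), with 3791 and 4062 CPM in WT3 and WT6 and 3477 to 4044 CPM in the knockout libraries. None of its 10 markers was at 0, and 9 had a positive r with the members' mean deviation (median 0.28). WT2 and WT4 were the 2 highest libraries for Pecam1, Cdh5 and Plvap alone. Vwf and Cldn5 were highest in WT6 and Car4 in KO4, and Ednrb was lowest in WT4. The 11 heart muscle markers summed to 765 CPM in WT2 and 785 CPM in WT4, while WT3 had 471 CPM, WT6 had 989 CPM and the knockout libraries had 447 to 541 CPM. Like 8 of the members, all 11 had negative log2 fold changes (median -0.67, 6 with an unadjusted p under 0.05, none called by edgeR), and none was at 0. Adipocyte markers, 6 of which were tested, were highest in WT6, at a sum of 367 CPM, the other libraries having 219 to 299.8 CPM. The parts of endothelium, heart muscle and fat in the members' levels were not tested.

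Levels per length of annotated exon place the members among their relatives, which were chosen after the values were seen. In wild type lung Jun stood at 80.8 ± 20.8 CPM per kb (SD, n = 4), above Junb at 27.5 ± 10.9 and Jund, the constitutive family member, at 23.4 ± 6.07 CPM per kb. The last 2 did not differ beyond their spread. In the Fos family, Fos had 21.5 ± 8.15, Fosl2 12.8 ± 2.14, Fosl1 2.53 ± 0.28 and Fosb 1.44 ± 0.65 CPM per kb, with Fos and Fosl2 within their spread of each other. Nr4a1 (12.3 ± 3.699 CPM per kb) stood above Nr4a2 (3.04 ± 0.39) and Nr4a3 (2.86 ± 0.77), and Egr1 (5.14 ± 2.27) above Egr2 (1.56 ± 0.35) and Egr3 (0.48 ± 0.08). Dusp1 at 66.6 ± 28.5 CPM per kb was the highest of 8 dual-specificity phosphatases, ahead of Dusp6 at 38.0 ± 4.16, the ERK-specific enzyme, though the values of Dusp1 spread widely. Zfp36 had 40.5 ± 17.6 and its relatives Zfp36l1 and Zfp36l2 had 18.4 ± 6.201 and 20.0 ± 3.25 CPM per kb. In other families a relative stood above the member: Ier3 at 49.4 ± 14.2 above Ier2 at 16.4 ± 5.49 CPM per kb, and the AP-1 repressor Jdp2 at 18.7 ± 2.82 above Atf3 at 4.70 ± 1.13 CPM per kb.

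The relatives did not share the order of libraries throughout. Jund had 46.3, 35.8, 48.0 and 26.3 CPM in WT2, WT3, WT4 and WT6, with WT4 highest and WT6 lowest, the extremes also found for Zfp36. Nr4a3, by contrast, had 12.1, 15.7, 17.6 and 23.2 CPM in the same libraries, where WT2 was lowest and WT6 highest. Dusp6 was at 104 CPM in WT2, its lowest library, and at 153 CPM in KO3, its highest.

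Other genes of the early response and of the pathways around it were taken from 8 lists, of which 143 genes were tested. None was called over all genes, by edgeR, and 4 had an unadjusted p under 0.05 (Arc, Hbegf, Dusp2 and Ccnd1), a share close to the 2.87% of all tested genes. Their median log2 fold change was 0.01, with 76 positive and 67 negative values. The log2 fold changes in the following paragraphs all had an adjusted p of 0.9998.

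Among the 16 AP-1 and bZIP partners the median was 0.01, and the smallest p belonged to Batf2 (-0.39 ± 0.21 SE), Batf3 (0.71 ± 0.44), a factor of dendritic cells, and Fosl1 (-0.31 ± 0.21). The 17 other early response transcription factors had a median of -0.05, led by Nr4a2 (-0.18 ± 0.15), Klf6 (-0.12 ± 0.12) and the clock-linked repressor Nfil3 (0.38 ± 0.37). In the 24 other early response genes the median was 0.04. Arc, an activity-regulated gene known from neurons, ranged from 1.02 to 2.22 CPM among the wild type and from 0.61 to 1.02 CPM among the knockout libraries. Its groups met at nearly the same value in WT3 and KO4, and 3.72% of all tested genes had groups without overlap. Hbegf, an EGF receptor ligand, had 42.7 ± 7.52 and 32.4 ± 6.43 CPM, and the kinase Plk2 64.4 ± 13.7 and 55.8 ± 11.3 CPM.

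The 19 feedback inhibitors had a median of 0.07. Dusp2, a phosphatase of lymphocytes, lay between 0.81 and 1.56 CPM in the wild type, whereas KO3 and KO4 had 1.35 and 1.33 CPM and KO5 had 4.63 CPM. KO5 also had the highest sum of the 10 B and plasma cell markers, 2125 CPM against 264 to 301 CPM in wild type and 447 and 1016 CPM in the other knockout libraries, and none of these markers was at 0. The part of such cells in the Dusp2 level was not tested. Nfkbiz, an atypical inhibitor of NF-kB, had a log2 fold change of 0.25 ± 0.12 and the ERK pathway inhibitor Spry1 of -0.14 ± 0.11. The 27 upstream kinases and promoter factors had a median of 0.04, with the CREB coactivator Crtc2 (0.14 ± 0.13), the kinase of ribosomal protein S6 Rps6ka1 (0.13 ± 0.13) and the JNK activator Map2k4 (0.08 ± 0.09) having the smallest p.

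Some genes of these lists varied between libraries much as the members did, and the following were chosen after their values were seen. Ccn1, a matricellular protein induced by serum and stretch, had 157, 110, 213 and 107 CPM in WT2, WT3, WT4 and WT6 and 147, 113 and 133 CPM in the knockout libraries (r = 0.94 with the members' mean deviation over 7 libraries). Btg2, an antiproliferative early gene, had 157, 127, 184 and 108 CPM and 153, 122 and 177 CPM (r = 0.84), and Ppp1r15a, the GADD34 stress gene, 52.0, 44.4, 64.8 and 35.6 CPM and 51.4, 44.4 and 42.5 CPM (r = 0.82). WT4 was the highest library for all 3. They had the highest r of the 24 other early response genes, of which 18 had a positive r (median 0.29). Of the 17 other early response transcription factors, 12 had a positive r (median 0.18), down to -0.60 for Klf10. Among 11640 named genes averaging 5 CPM or more, 52.4% had a positive r.

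The heat shock list of 14 genes had a median log2 fold change of -0.0045 between genotypes, and Hsph1 (0.22 ± 0.31 SE), Hspe1 (-0.08 ± 0.14) and Dnajb1 (0.11 ± 0.20) had the smallest p. A pair of its genes, Hspa1a and Hspa1b, spread more over the libraries than any member. Hspa1a, which encodes the stress-induced HSP70, had 16.2, 5.80, 36.4 and 5.90 CPM in WT2, WT3, WT4 and WT6, against 4.32, 16.9 and 17.4 CPM in KO3, KO4 and KO5. Its near-identical copy Hspa1b had 29.7, 8.60, 60.2 and 15.2 CPM and 7.08, 25.6 and 33.2 CPM, and reads of the pair could have been split between them. Both were highest in WT4 and lowest in KO3, with an 8.44-fold and 8.50-fold range. Hspa8, the constitutive relative, ranged from 776 CPM in WT3 to 1137 CPM in WT4. KO3, where Hspa1a and Hspa1b were lowest, was above KO4 for every member but Atf3 and Zfp36. This pair and the members thus did not rank the knockout libraries alike. Over all 7 libraries, r with the members' mean deviation was 0.69 for Hspa1a, 0.67 for Hspa1b and 0.77 for Hspa8. It was positive for 13 of the 14 listed genes (median 0.44), against 52.4% of 11640 named genes averaging 5 CPM or more.

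**Figure D5:**
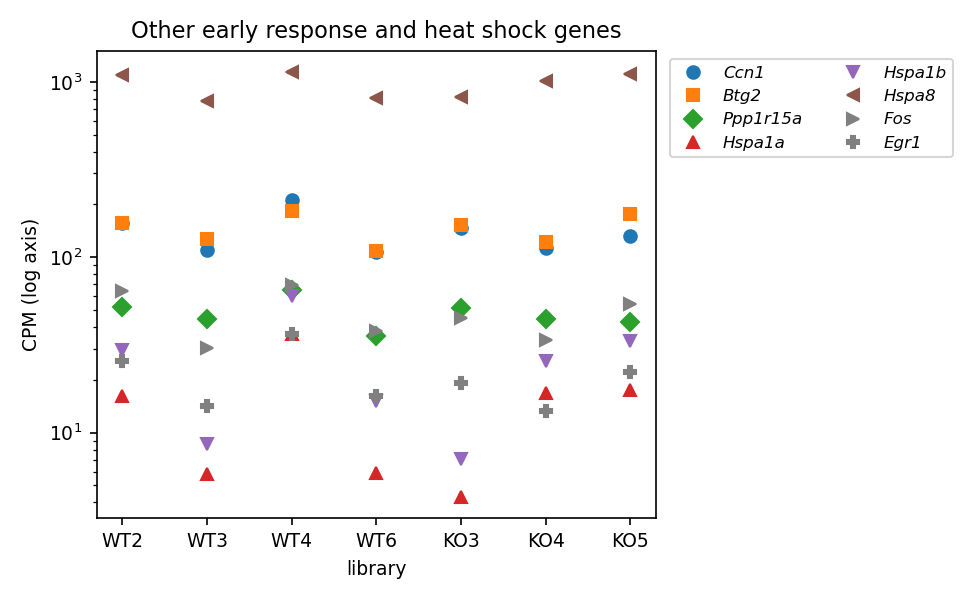
Level in CPM (log axis) of 6 early response and heat shock genes, with Fos and Egr1 in grey, in each of the 7 libraries (x axis). Hspa1a and Hspa1b are lowest in KO3 and highest in WT4, and Ccn1, Btg2 and Ppp1r15a peak in WT4.

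Genes most like the members over the 7 libraries were sought among 11640 named genes averaging 5 CPM or more, by Pearson r with the members' mean deviation. The closest 8 were Ap3s2 (r = 0.99), Ccdc97 (0.98), Sh3bp4 (0.96), Brd1 (0.96), Vtn (0.96), Plbd2 (0.96), Ppard (0.96) and Cblc (0.95). The adaptor subunit Ap3s2 had 31.0, 24.5, 32.8 and 23.6 CPM in WT2, WT3, WT4 and WT6 against 26.8, 24.97 and 27.2 CPM in KO3, KO4 and KO5. Brd1, a chromatin reader, ranged only from 136 CPM in WT6 to 158 CPM in WT4, a small range beside those of the members. Single members set against the mean of the other 9 had r = 0.95 (Fos), 0.94 (Junb), 0.93 (Ier2), 0.92 (Egr1), 0.74 (Dusp1), 0.74 (Nr4a1), 0.73 (Fosb), 0.62 (Zfp36), 0.50 (Jun) and 0.39 (Atf3). Over all candidates the median r was 0.03. These values of r over 7 libraries, which share depth and genotype, are a description.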

How the data were processed

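Whole lung RNA was sequenced in 4 wild type and 3 Scgb3a2 knockout libraries. The authors deposited whole-number counts per gene, not normalized. STAR, DESeq2 and mm10 are named in the submitters' processing notes without roles, with the counter and strand setting not given in the sources used here. Of the 28828 entries, 562 had a total of 0, and 31 sharing a symbol were kept apart.

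edgeR 4.0.16 in R 4.3.3 compared genotypes (filter on low counts, TMM, robust quasi-likelihood test, two-sided, Benjamini-Hochberg adjustment over 19832 genes, threshold 0.05), and was checked on simulated counts. DESeq2 1.42.0 was an alternative, beside library totals, no filter, leaving out libraries, a block on the title number, and a term for WT6 and KO5. Log2 CPM used a prior count of 2. Positions and exon lengths came from GENCODE M21 (GRCm38). Genes named by rule are the 10 members, Scgb3a2, the 8 most alike genes and up to 3 genes with the smallest p per list. Family relatives and Ccn1, Btg2, Ppp1r15a, Hspa1a, Hspa1b and Hspa8 were chosen after the values were seen. Some cell type markers, overlapping genes and other genes of the lists are also named. The members and lists were chosen with earlier results of these data known. Without molecular identifiers, counting intervals (95%) cover counting error only.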

Additional observations from a re-analysis of the deposited data

How the results depend on the processing

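No member was called by edgeR or DESeq2 under any of the 13 alternatives, where adjusted p ranged from 0.0632 to 1.0. Per alternative, 6 to 10 of the 10 members had negative log2 fold changes, with 6 when WT4 was left out. The median over all genes lay between -0.0088 and 0.0076. The alternatives reuse the same genes and libraries, so they are not independent of each other. The members' median log2 fold change ranged from -0.30 to -0.02 with each library left out in turn, and was -0.29 among the 5 libraries other than WT6 and KO5. Leave-one-out ranges that crossed 0 were -0.23 to 0.062 for Jun, -0.26 to 0.14 for Junb, -0.21 to 0.12 for Ier2, -0.10 to 0.35 for Dusp1, -0.22 to 0.22 for Zfp36, -0.21 to 0.48 for Hsph1, -0.23 to 0.015 for Hspe1 and -0.12 to 0.28 for Dnajb1. Those of Atf3 (-0.40 to -0.079), Nr4a1 (-0.64 to -0.26), Fos (-0.37 to -0.0038), Fosb (-0.83 to -0.060) and Egr1 (-0.51 to -0.036) stayed below 0. Among the 5 libraries Zfp36 (-0.088), Hsph1 (-0.24) and Dnajb1 (-0.13) changed sign. The cause was not tested. The count of called genes was 60 with DESeq2, 29 with the term for WT6 and KO5, 14 among the 5 libraries, and 3 to 41 with 1 library left out (3 without WT2, WT3 or WT4, 41 without KO3). Same-numbered libraries correlated at 0.24 (number 3) and 0.20 (number 4) and crossed numbers at 0.22 and 0.24, so the numbers were not treated as pairs. A replicate block on the number left 1 residual degree of freedom and gave 140 calls, with 0.012 for Jun, -0.11 for Hsph1 and -0.091 for Dnajb1, and adjusted p of 0.0632 for Nr4a1 and 0.0895 for Egr1; among the genes named from the lists it called Thbs1, Cdkn1a, Hspa1a and Hspa1b. The lowest count of a member in a library was 71 (Fosb in KO4).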

Other observations

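The 17 tested genes of the delayed response and AP-1 target list had a median log2 fold change of -0.13, with 11 negative and 6 positive values and none called by edgeR (adjusted p = 0.9998 for each gene named here). Ccnd1, the cyclin of G1 entry, had 110.5, 122, 136 and 109 CPM in WT2, WT3, WT4 and WT6 against 106, 98.7 and 91.4 CPM in KO3, KO4 and KO5. Its groups did not overlap, as was the case for 3.72% of all tested genes. Thbs1, a matricellular protein of platelets and injured tissue, had 262, 505, 828 and 703 CPM in the wild type libraries and 326, 319 and 438 CPM in the knockout libraries. WT2, high for the members, was its lowest library. The cytokine Lif had 2.11 to 5.32 CPM and 2.03 to 2.82 CPM.

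In the glucocorticoid list of 12 genes, which bears on Dusp1, the median was 0.03 and none was called. The cell cycle inhibitor Cdkn1a had 26.0, 43.5, 68.6 and 43.4 CPM in WT2, WT3, WT4 and WT6 against 67.7, 84.7 and 33.7 CPM in KO3, KO4 and KO5, where WT2 was again lowest. The glucocorticoid-induced leucine zipper gene Tsc22d3 (533 to 699.7 CPM over all libraries) was lowest in WT3 and highest in KO5, and the NF-kB inhibitor Nfkbia (118 to 149 CPM) likewise.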
